A study of Homo sapiens with 22 samples.

Results

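NF-kB cytokine and chemokine genes were followed through every library of HT1080 cells, a human fibrosarcoma line, in which the lysine deacetylases KDAC6 (HDAC6) and KDAC8 (HDAC8) were inactivated or inhibited. The 10 genes, of 60675 in the table, were taken by their symbols: the chemokines CXCL8, CXCL1, CXCL2, CXCL3 and CCL2, the cytokines IL1B, IL6 and LIF, and the pathway inhibitors NFKBIA and TNFAIP3. The rule takes genes by name and uses no measured value. RNA-seq covered 22 libraries in 6 groups, and each mutant line and each inhibitor was set against untreated wild-type (WT) cells to ask what loss of deacetylation does to the transcriptome.

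The WT group held 4 libraries of unmodified HT1080 cells. The 3 mutant lines, with 4 libraries each, carried an endogenous change of an active-site histidine to alanine: KDAC6H216A in the first catalytic domain of KDAC6, KDAC6H611A in its second domain, and KDAC8H143A in KDAC8. Both genes lie on the X chromosome, of which these cells have a single copy to edit. The lines were grown from single colonies after CRISPR/Cas9 editing, KDAC6H216A being a pool of 3 independently obtained lines, and the repair templates also carried silent changes. KDAC8H143A has an unintended base inserted in an intron of KDAC8 as well. The other groups were WT cells grown for 2 days with 1 µM Tubastatin A, sold as a KDAC6 inhibitor, or with 5 µM PCI-34051, sold as a KDAC8 inhibitor, with 3 libraries each. The methods name no vehicle control and no WT line that went through cloning. RNA was depleted of rRNA before sequencing. Replicates are described as biological, but nothing says how separate their cultures were, so p-values measure the spread between these samples.

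NF-kB is a family of dimeric transcription factors held in the cytoplasm by IkB proteins. Signals from receptors of interleukin 1, tumor necrosis factor or microbial products activate the IkB kinase complex, IkB is degraded, and the freed dimers bind kB sites in the promoters of cytokine and chemokine genes. Among the induced genes are those of IkB-alpha (NFKBIA) and of the ubiquitin-editing protein A20 (TNFAIP3), which shut the pathway down again. Fibrosarcoma and other mesenchymal cells make several of these secreted proteins without immune stimulation.

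The promoters are shown with their kB sites, the element that NF-kB dimers bind. RefSeq promoters (GRCh38.p14) were given for 8 of the 10 genes, and the 160 bases that precede the annotated start of 6 of them are printed 5′ to 3′ on the strand of the gene, with matches to kB motifs in capitals.
CXCL8, chr4:73740409-73740568, plus strand: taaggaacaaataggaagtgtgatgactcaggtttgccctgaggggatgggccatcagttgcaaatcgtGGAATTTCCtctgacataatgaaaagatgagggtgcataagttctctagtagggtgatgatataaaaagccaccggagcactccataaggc
CXCL1, chr4:73869233-73869392, plus strand: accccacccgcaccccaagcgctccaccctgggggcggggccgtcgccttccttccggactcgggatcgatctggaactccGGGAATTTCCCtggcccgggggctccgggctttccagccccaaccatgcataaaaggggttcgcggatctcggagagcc
CXCL3, chr4:74038690-74038849, minus strand: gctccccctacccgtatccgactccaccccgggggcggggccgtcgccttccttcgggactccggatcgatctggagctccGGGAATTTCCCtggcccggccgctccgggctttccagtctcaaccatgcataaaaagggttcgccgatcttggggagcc
IL6, chr7:22727040-22727199, plus strand: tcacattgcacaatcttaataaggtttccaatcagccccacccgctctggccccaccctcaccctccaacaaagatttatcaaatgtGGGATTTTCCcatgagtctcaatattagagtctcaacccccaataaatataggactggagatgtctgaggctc
NFKBIA, chr14:35404750-35404909, minus strand: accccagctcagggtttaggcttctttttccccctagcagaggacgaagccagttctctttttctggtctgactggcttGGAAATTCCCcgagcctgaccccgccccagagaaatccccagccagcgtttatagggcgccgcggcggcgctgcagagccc
TNFAIP3, chr6:137867099-137867258, plus strand: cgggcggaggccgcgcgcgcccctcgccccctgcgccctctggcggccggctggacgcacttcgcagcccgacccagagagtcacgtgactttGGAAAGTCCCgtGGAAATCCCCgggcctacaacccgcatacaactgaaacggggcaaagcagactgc

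The NF-kB consensus, searched on both strands over a window of 300 bases that begins 250 bases before the start, was found in 6 of the 8 promoters (CXCL1, CXCL2, CXCL3, IL6, NFKBIA and TNFAIP3) and in 5.72% of 27305 RefSeq promoters. The shorter core GGANNTTCC, which overlaps the consensus, was found in 7 of the 8 and in 4.59% of all promoters. CXCL8 had the core alone, as GGAATTTCC from 91 bases before the start, together with the AP-1 motif TGANTCA 137 bases before the start, a motif in 7.76% of promoters. IL1B had neither kB motif in this window. The genes were named as NF-kB targets, so these shares describe the choice and received no test. CXCL1 and CXCL3, whose promoters were identical in 210 of 258 aligned positions (81.4%), both had GGGAATTTCC, 79 bases before the start, yet the levels of these genes were far apart, as given with the chemokines. The CXCL8 and CXCL3 promoters were identical in 43.6% of 273 aligned positions.

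Libraries differed before any of these genes is considered. The total count was between 5248953 and 29862665, highest in the inhibitor groups. Mitochondrial rRNA took between 13.1% and 38% of the counts in 10 libraries and at most 0.195% in the other 12. All 4 WT libraries were of the first kind and all KDAC8H143A, Tubastatin A and PCI-34051 libraries of the second, so library type and condition cannot be told apart in those 3 comparisons. KDAC6H216A replicate 1 (0.195%) and KDAC6H611A replicate 4 (0.173%) were of the second kind, and results for these lines are given with and without them. HDAC6 was counted at 5.85 to 19.1 CPM and HDAC8 at 10.3 to 15.4 CPM, but a point mutation cannot be seen in a gene count, so these levels do not check the labels. HDAC6 was lowest in KDAC6H216A, at 5.85 to 7.44 CPM, against 9.71 to 16.9 CPM in WT. The study also found KDAC6 slightly lower in that line by qPCR. The part of this lower level in the differences of the line was not tested. The summed level of 8 mesenchymal markers was 5200 to 6095 CPM in WT, 3641 to 6467 in KDAC6H216A, 2938 to 5203 in KDAC6H611A, 3377 to 4498 in KDAC8H143A, 8705 to 9274 with Tubastatin A and 9266 to 9710 with PCI-34051. By group mean, CXCL8 and IL1B were likewise lowest in KDAC6H611A and KDAC8H143A and highest with the inhibitors, and the part of these markers in their differences was not tested. In contrast, 4 epithelial markers summed to at most 9.62 CPM and 6 leukocyte markers to at most 7.09 CPM. EPCAM, PTPRC and CD3E did not exceed 3 counts in any library. In RNA from whole cultures, fewer cells that express a gene and less RNA per cell cannot be told apart.

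Levels are in CPM, read counts divided by a library size that is scaled by the trimmed mean of M-values (TMM) over the 22 libraries. Fold changes are from edgeR's quasi-likelihood test in a fit of the 2 groups compared, with Benjamini-Hochberg adjustment over all genes tested, and a gene was called changed at an adjusted p below 0.01. Between genes, levels were compared per kb of annotated exon. In WT cells the order was IL1B (23.9 ± 1.36 CPM per kb, SD, n = 4), LIF (8.77 ± 0.744), CXCL8 (5.07 ± 0.888), NFKBIA (4.52 ± 0.464), TNFAIP3 (2.99 ± 0.236), CXCL3 (1.33 ± 0.183), IL6 (0.148 ± 0.0684) and CCL2 (0.0835 ± 0.0614). Over the 6 groups, the highest mean CPM of CXCL8 was 59.4 times the lowest, against 12.6 times for IL6, which rests on 10 counts in all in KDAC8H143A, 5.81 for CXCL3, 4.69 for IL1B, 2.32 for LIF, 2.27 for NFKBIA and 1.85 for TNFAIP3.

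**Figure D1:**
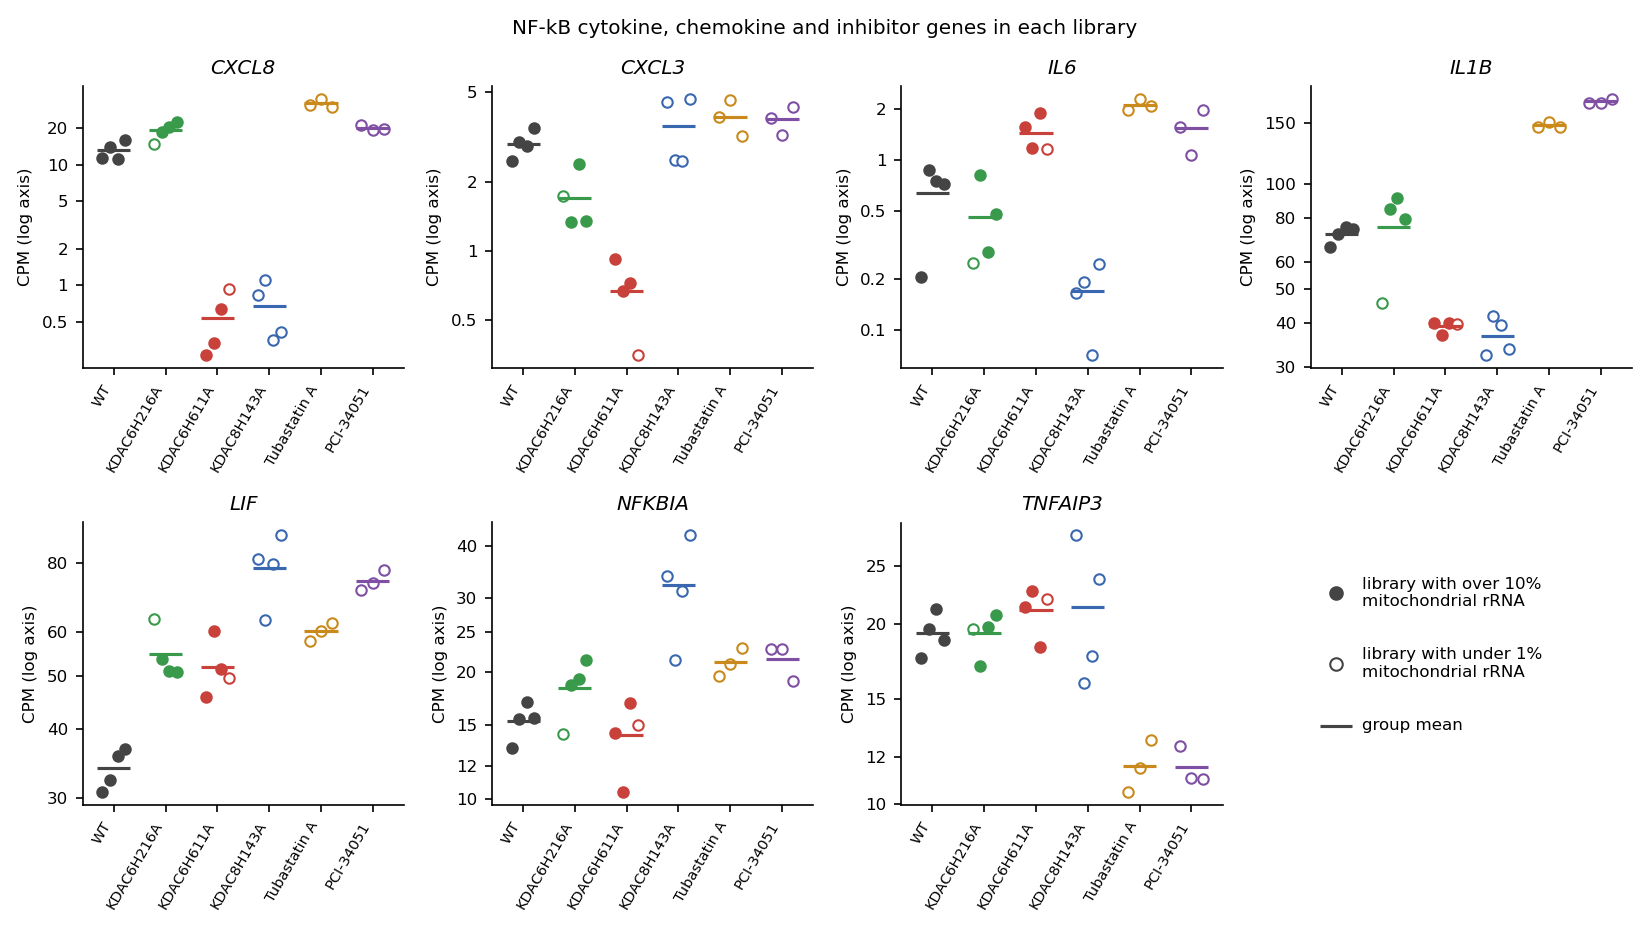
Level in CPM (log axis, a separate range in each panel) of 7 genes in each of the 22 libraries by group, with a line at the group mean and open circles for libraries with under 1% mitochondrial rRNA. CXCL8 sits at or below 1.11 CPM in all KDAC6H611A and KDAC8H143A libraries and at 11.1 CPM or above in all others, while TNFAIP3 is lowest in both inhibitor groups.

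CXCL8, the gene of interleukin 8, which draws neutrophils through the receptors CXCR1 and CXCR2, had the widest range. It was near its lower limit of detection in the KDAC6H611A and KDAC8H143A lines and above WT cells with both inhibitors. Its level in WT libraries was 11.4, 14.1, 11.1 and 15.9 CPM (13.1 ± 2.30, SD, n = 4). KDAC6H216A gave 14.9, 18.8, 20.5 and 22.4 CPM, which overlaps WT. KDAC6H611A gave 0.263, 0.335, 0.633 and 0.930 CPM, from 2, 2, 7 and 8 counts. KDAC8H143A was as low, at 0.833, 1.11, 0.355 and 0.408 CPM, and no library of either line came near a WT library. With Tubastatin A the values were 31.4, 35 and 29.9 CPM, and with PCI-34051 21.3, 19.3 and 19.5 CPM. Every library of both treatments was above every WT library.

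CXCL8 was 22.3-fold lower in KDAC6H611A than in WT cells (log2 fold change -4.48 ± 0.29, SE, adjusted p 8.12e-07, edgeR) and 17.7-fold lower in KDAC8H143A (-4.14 ± 0.30, adjusted p 1.05e-06). With a correction for GC content and length the value in KDAC8H143A was smaller, at -3.13 (adjusted p 9.48e-07). Without KDAC6H611A replicate 4, the library of low mitochondrial rRNA, the value in that line was -4.83 (adjusted p 8.66e-06). It was 2.25-fold higher with Tubastatin A (1.17 ± 0.10, adjusted p 5.38e-09) and 1.42-fold higher with PCI-34051 (0.51 ± 0.11, adjusted p 6.44e-04). The call with PCI-34051 was lost with that correction (0.28, adjusted p 0.0387) and with all 6 groups in one fit (0.61, adjusted p 0.0149). In KDAC6H216A the difference of 0.45 ± 0.14 did not pass (adjusted p 0.162), but it passed without replicate 1 of that line (0.51, adjusted p 0.00214). In order of mean level the groups were Tubastatin A, PCI-34051, KDAC6H216A, WT, KDAC8H143A and KDAC6H611A, and the ranges of PCI-34051 and KDAC6H216A, of KDAC6H216A and WT, and of both low lines overlapped.

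CXCL3, a neutrophil chemokine of the same cluster on chromosome 4, did not follow CXCL8 in the KDAC8H143A line. WT libraries were at 2.48, 2.99, 2.90 and 3.47 CPM. The KDAC6H216A libraries lay at 1.75, 1.33, 2.41 and 1.35 CPM, all below WT. KDAC6H611A libraries were lower again, at 0.922, 0.671, 0.724 and 0.349 CPM, from 7, 4, 8 and 3 counts. KDAC8H143A libraries were split, with replicates 1 and 4 at 4.50 and 4.65 CPM and replicates 2 and 3 at 2.51 and 2.49 CPM. CXCL3 was 4.33-fold lower in KDAC6H611A (-2.11 ± 0.34, adjusted p 7.48e-04, edgeR; -1.90 and adjusted p 0.00289 without replicate 4). The lower value in KDAC6H216A did not pass (-0.88 ± 0.27, adjusted p 0.172). In KDAC8H143A the estimate was 0.29 ± 0.29 (adjusted p 0.391). With Tubastatin A (3.86, 4.57 and 3.18 CPM) it was 0.26 ± 0.21 (adjusted p 0.277), and with PCI-34051 (3.82, 3.24 and 4.29 CPM) 0.24 ± 0.21 (adjusted p 0.329).

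The remaining chemokines were hardly transcribed. CXCL1, whose promoter is printed beside that of CXCL3, was at 0 counts in all 22 libraries, which allows up to 0.0953 to 0.619 CPM by library, the level that 3 counts have. CXCL2 had 1 count in all, in a PCI-34051 library. CCL2, which attracts monocytes, had 39 counts in all and 9 libraries at 0. These were 0, 2, 2 and 1 counts in WT, 1, 1, 2 and 0 in KDAC6H216A, none in KDAC6H611A and 0, 2, 2 and 0 in KDAC8H143A. The deeper inhibitor libraries had 1, 6 and 8 counts with Tubastatin A and 0, 6 and 5 with PCI-34051. CXCL1 and CXCL2 were not tested at this depth. CCL2 did not pass the filter, and in the fits without it no difference was detected with Tubastatin A (-0.13, adjusted p 0.933, edgeR) or PCI-34051 (-0.48, adjusted p 0.763). No window of 100 bases in the longest transcripts of CXCL8, CXCL1, CXCL2 and CXCL3 occurred in a transcript of another of these genes, so reads over such a window are not shared among them.

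IL1B encodes interleukin 1 beta, a cytokine that itself activates NF-kB through the IL1 receptor, and it was the most abundant of these genes per kb. It fell in the lines in which CXCL8 fell and rose with both inhibitors. WT libraries gave 66.3, 72.0, 75.3 and 74.6 CPM. KDAC6H216A gave 85.1, 91.2 and 79.4 CPM in replicates 2 to 4 and 45.7 CPM in replicate 1, so the WT range lay between the libraries of this line. KDAC6H611A was at 40.03, 36.9, 39.9 and 39.8 CPM, with the low-rRNA replicate 4 among the others. KDAC8H143A was at 32.3, 41.8, 39.4 and 33.8 CPM. Tubastatin A libraries reached 146, 151 and 146 CPM and PCI-34051 libraries 171, 171 and 176 CPM, with no overlap between the treatments.

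IL1B was 1.81-fold lower in KDAC6H611A (-0.85 ± 0.08, adjusted p 1.45e-05, edgeR) and 1.89-fold lower in KDAC8H143A (-0.92 ± 0.10, adjusted p 1.55e-05). With Tubastatin A it was 1.89-fold higher (0.92 ± 0.05, adjusted p 4.80e-12), and with PCI-34051 2.23-fold higher (1.16 ± 0.05, adjusted p 4.39e-12). These 4 calls held under each of the 7 other settings and with each library left out. In KDAC6H216A the estimate was -0.04 ± 0.14 (adjusted p 0.926), and 0.10 (adjusted p 0.171) without replicate 1.

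**Figure D2:**
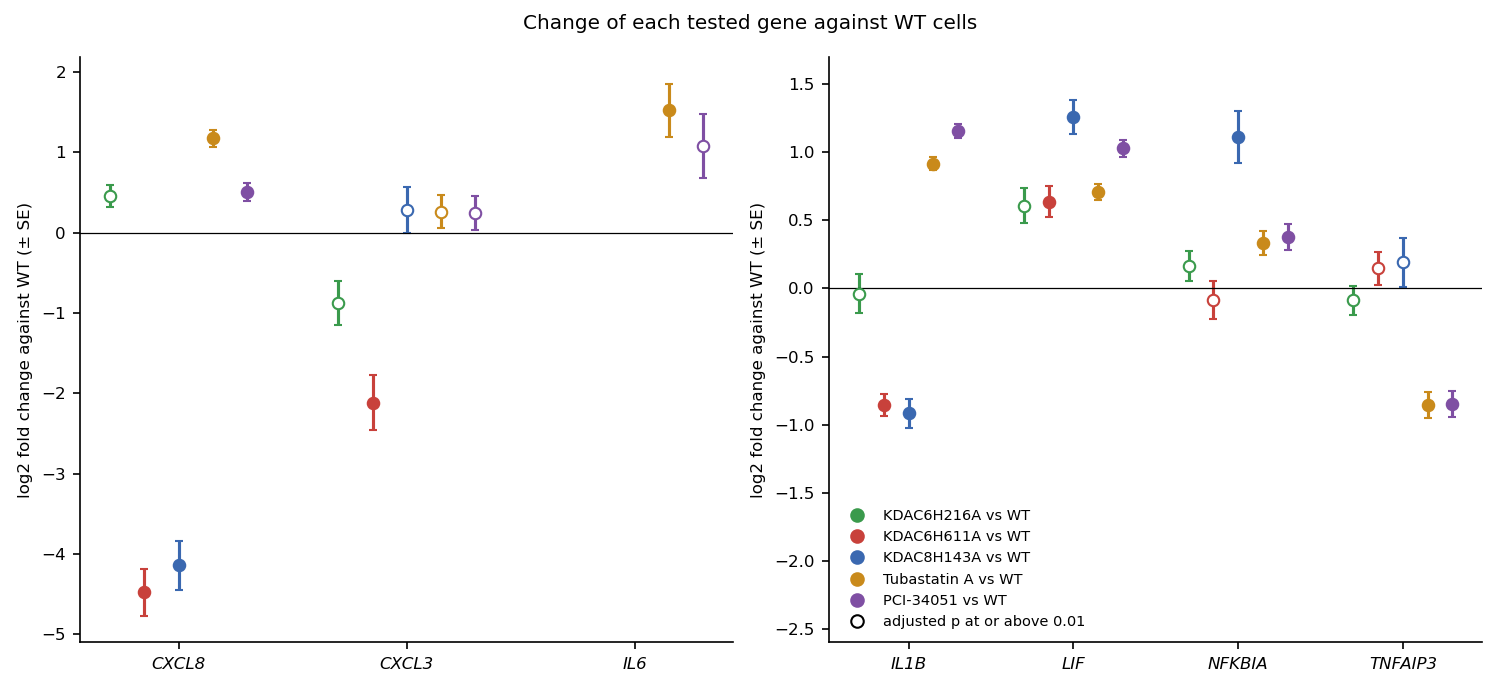
Log2 fold change against WT cells ± SE of the 7 genes that could be tested, by comparison, with filled circles for an adjusted p below 0.01 and different vertical ranges in the panels. CXCL8 is at -4.48 and -4.14 in KDAC6H611A and KDAC8H143A and above 0 with both inhibitors, and TNFAIP3 is below 0 with both inhibitors while NFKBIA is above 0.

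IL6 encodes interleukin 6, an inducer of the acute-phase response that signals through IL6ST (gp130). It was a rare transcript, with 1, 7, 6 and 5 counts in WT libraries (0.206, 0.872, 0.757 and 0.723 CPM). KDAC6H216A had 2, 8, 3 and 5 counts and KDAC8H143A 2, 4, 1 and 3, while KDAC6H611A had 12, 7, 21 and 10 (1.58, 1.17, 1.90 and 1.16 CPM), above every WT library. With Tubastatin A it had 62, 70 and 64 counts (1.98, 2.30 and 2.10 CPM), and with PCI-34051 42, 34 and 56 (1.57, 1.08 and 1.97 CPM). IL6 rose 2.87-fold with Tubastatin A (1.52 ± 0.33, adjusted p 5.02e-04, edgeR). With so few counts in WT cells IL6 passed the filter only through the treated libraries, where it was high, so its values with the inhibitors are descriptions. With PCI-34051 the estimate of 1.07 ± 0.40 did not pass (adjusted p 0.0265), although no library overlapped WT. The filter on low counts kept IL6 out of the fits of the mutant lines. In the fits that held it, KDAC6H611A gave 1.12 with an adjusted p of 0.155 without the filter, and 1.12 with an adjusted p of 0.055 with all 6 groups in one fit. KDAC8H143A gave -1.83 (adjusted p 0.0449) and -1.94 (adjusted p 0.0018) in the same order. The antisense gene IL6-AS1 and the gene STEAP1B, which overlap IL6, had at most 7 and 2 counts in any library.

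LIF, leukemia inhibitory factor, is a cytokine of the IL6 family that binds LIFR and gp130. It was lowest in WT cells and above every WT library in all 18 others. WT libraries gave 30.8, 32.3, 35.8 and 36.9 CPM. KDAC6H216A gave 63.4, 53.6, 51.1 and 50.8 CPM and KDAC6H611A 45.8, 60.4, 51.5 and 49.5 CPM, so the KDAC6 lines overlapped each other but not WT. KDAC8H143A was at 81.4, 63.2, 79.7 and 90.0 CPM. Tubastatin A gave 57.9, 60.2 and 62.5 CPM and PCI-34051 71.5, 73.9 and 77.8 CPM.

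LIF rose 2.39-fold in KDAC8H143A (1.26 ± 0.13, adjusted p 6.64e-06, edgeR), 2.04-fold with PCI-34051 (1.03 ± 0.06, adjusted p 4.14e-10), 1.63-fold with Tubastatin A (0.71 ± 0.06, adjusted p 2.91e-09) and 1.55-fold in KDAC6H611A (0.64 ± 0.11, adjusted p 0.00164). With the correction for GC content and length the rise in KDAC8H143A was 0.63 (adjusted p 4.20e-05), below those with PCI-34051 (1.05) and Tubastatin A (0.76) in the same fits, so the order of these 3 turned. The call in KDAC6H611A was lost without WT replicate 2 (0.60, adjusted p 0.0102) and with scaling by the total count alone (0.63, adjusted p 0.0288). In KDAC6H216A the rise of 0.61 ± 0.13 missed the threshold (adjusted p 0.0375) and passed without replicate 1 (0.47, adjusted p 4.54e-05), with DESeq2 (0.63, adjusted p 4.93e-04), without the filter (0.63, adjusted p 0.00354) and with all 6 groups in one fit (0.69, adjusted p 7.62e-04). The antisense gene LIF-AS2 overlaps LIF and had up to 68 counts in a library, with means of 0.456 CPM in WT and 4.35 CPM in KDAC8H143A. The methods state default settings for RSEM, which do not use strand, so reads of LIF and its antisense genes cannot be told apart where they overlap. LIF counts were not whole numbers in 6 libraries.

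NFKBIA encodes IkB-alpha, which holds NF-kB dimers in the cytoplasm and is itself induced by them. WT libraries were at 13.2, 15.5, 17.0 and 15.6 CPM, KDAC6H216A at 14.2, 18.7, 19.3 and 21.4 CPM and KDAC6H611A at 14.4, 10.4, 16.9 and 15 CPM, all overlapping. KDAC8H143A was higher and more spread, at 33.8, 21.4, 31.1 and 42.3 CPM. Tubastatin A (19.6, 21.0 and 22.8 CPM) and PCI-34051 (22.7, 22.7 and 19.0 CPM) lay just above WT. NFKBIA rose 2.16-fold in KDAC8H143A (1.11 ± 0.19, adjusted p 2.86e-04, edgeR), 1.26-fold with Tubastatin A (0.33 ± 0.09, adjusted p 0.00218) and 1.3-fold with PCI-34051 (0.38 ± 0.09, adjusted p 0.00228). The calls with inhibitors were lost without Tubastatin A replicate 3 (0.29, adjusted p 0.0115) and without PCI-34051 replicate 1 (0.34, adjusted p 0.0117), as well as with all 6 groups in one fit (adjusted p 0.0531 and 0.0437). The estimates were 0.17 ± 0.11 in KDAC6H216A (adjusted p 0.555) and -0.08 ± 0.14 in KDAC6H611A (adjusted p 0.730).

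TNFAIP3 encodes A20, a ubiquitin-editing enzyme that ends signaling upstream of the IkB kinase. Unlike NFKBIA it fell with both inhibitors. It was counted at 17.6, 19.6, 21.2 and 18.8 CPM in WT libraries, 19.6, 17.0, 19.8 and 20.7 CPM in KDAC6H216A, 21.3, 22.6, 18.3 and 22 CPM in KDAC6H611A and 28.1, 16, 17.7 and 23.7 CPM in KDAC8H143A. These 4 groups overlapped. With Tubastatin A it was 10.5, 11.5 and 12.8 CPM, and with PCI-34051 12.5, 11.1 and 11 CPM, below every library of the other groups. The fall was 1.81-fold with Tubastatin A (-0.86 ± 0.09, adjusted p 1.54e-07, edgeR) and 1.80-fold with PCI-34051 (-0.85 ± 0.10, adjusted p 6.57e-07), and it passed under every setting and with each library left out. The estimates were -0.09 ± 0.10 in KDAC6H216A (adjusted p 0.742), 0.15 ± 0.12 in KDAC6H611A (adjusted p 0.425) and 0.19 ± 0.18 in KDAC8H143A (adjusted p 0.355). The overlapping antisense gene WAKMAR2 had 14 counts at most in a library.

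Counted by comparison, none of the 6 genes tested in KDAC6H216A passed, against 0.834% of all genes tested (0.214% higher and 0.621% lower). An unadjusted p below 0.05 was reached by 3 of them, and DESeq2 called 1, LIF. Without KDAC6H216A replicate 1, CXCL8 and LIF passed, against 26% of all genes. In KDAC6H611A 4 of 6 passed, 1 higher and 3 lower, against 12.3% of all genes (6.08% higher and 6.24% lower). CXCL8 and CXCL3, with at most 8 counts in a KDAC6H611A library, passed the filter only through WT libraries, where they were high. Both thus add nothing to that count. In KDAC8H143A 4 of 6 passed, 2 higher and 2 lower, but so did 58.5% of all genes (31.6% higher and 26.9% lower). CXCL8, at 5 to 23 counts in KDAC8H143A libraries, passed that filter only through WT libraries as well and adds nothing there. With Tubastatin A 6 of 7 passed (5 higher, 1 lower) against 57.9% of all genes (29.3% higher, 28.6% lower). The count with PCI-34051 was 5 of 7 (4 higher, 1 lower) against 51.1% (25.5% higher, 25.6% lower). The seventh gene, IL6, passed the filter only through the treated libraries, where it was high, so it adds nothing to the count with Tubastatin A. In KDAC8H143A the share of members called is near the background. The median log2 fold change of the tested members was 0.06 in KDAC6H216A and -0.47 in KDAC6H611A, where the medians of all genes were 0.00 and 0.03. In KDAC8H143A it was 0.24 (0.08 for all genes), and under treatment 0.71 for Tubastatin A and 0.51 for PCI-34051 (-0.00 and -0.01 for all genes). Genes that passed the filter only through the group in which they were high had to differ, so these medians are descriptions.

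Directions were mixed within each condition. KDAC6H611A and KDAC8H143A both had lower CXCL8 and IL1B and higher LIF, whereas CXCL3 was lower in the former only by its own test and NFKBIA higher in the latter only, differences between the lines that were not tested. Both inhibitors had higher CXCL8, IL1B, LIF and NFKBIA and lower TNFAIP3. These comparisons share the WT libraries, so their values stand side by side and are not independent. Doses of the inhibitors differ, and no test was made between them.

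The lines mutated in the first and second catalytic domain of KDAC6 were compared directly, without WT cells. Of 6 genes tested 2 passed, both lower in KDAC6H611A, against 9.93% of all genes (4.61% higher and 5.31% lower). CXCL8 passed the filter only through KDAC6H216A, where it was high, so it adds nothing to that count. HDAC6 also differed between these lines, at 5.85 to 7.44 CPM in KDAC6H216A and 10.5 to 15.9 CPM in KDAC6H611A. Mutated domain, clone and HDAC6 level cannot be told apart here. CXCL8 was 31.3-fold lower in KDAC6H611A than in KDAC6H216A (-4.97 ± 0.27, adjusted p 6.47e-06, edgeR), with values of 0.263 to 0.930 CPM in the former and 14.9 to 22.4 CPM in the latter. Without both libraries of low mitochondrial rRNA, a setting chosen after the data were seen, it was -5.37 (adjusted p 2.08e-05). IL1B was 1.79-fold lower (-0.84 ± 0.15, adjusted p 0.00410), and -0.98 (adjusted p 3.01e-04) without those libraries. The IL1B call was lost in 6 of the 8 fits that left out 1 library, namely KDAC6H216A replicate 2, 3 or 4 or KDAC6H611A replicate 1, 3 or 4, where the adjusted p reached 0.0224. CXCL3 did not pass (-1.26 ± 0.40, adjusted p 0.0501), although no library overlapped. LIF (0.00 ± 0.15, adjusted p 0.997), NFKBIA (-0.28 ± 0.14, adjusted p 0.199) and TNFAIP3 (0.21 ± 0.13, adjusted p 0.296) did not pass either. IL6 went the other way, with 1.16 to 1.90 CPM in KDAC6H611A above the 0.25 to 0.821 CPM of KDAC6H216A. The filter left it out of this fit, and it gave 1.64 without the filter (adjusted p 0.0539, edgeR), 1.69 with DESeq2 (adjusted p 0.0276) and 1.65 with all 6 groups in one fit (adjusted p 0.00349), where alone it passed.

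**Figure D3:**
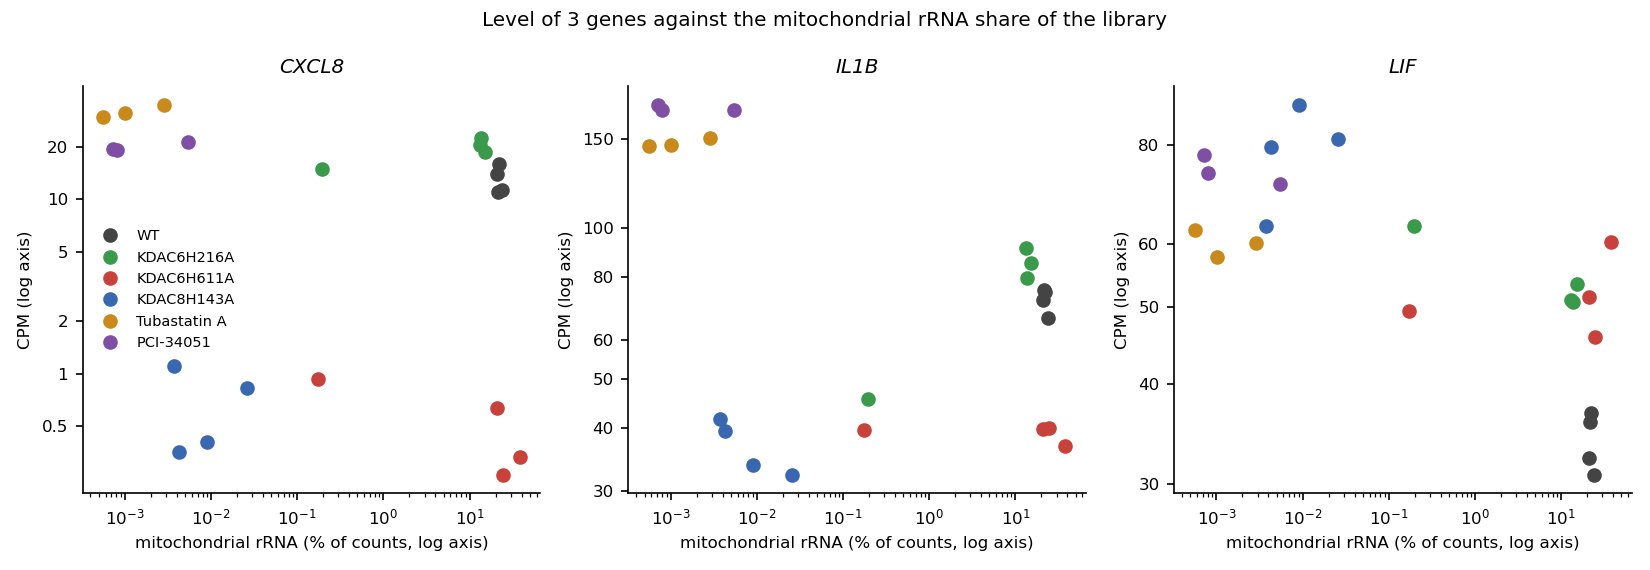
Level in CPM (log axis) of CXCL8, IL1B and LIF against the share of mitochondrial rRNA in percent of counts (log axis), with 1 point per library colored by group. KDAC6H611A replicate 4 (0.173% rRNA, CXCL8 0.930 CPM) lies with its own line in CXCL8 and IL1B, while KDAC6H216A replicate 1 (0.195%) lies below the rest of its line in CXCL8 and IL1B, at 14.9 and 45.7 CPM.

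Within the KDAC6 lines, where libraries of both kinds exist, CXCL8 was at 0.263 to 0.633 CPM in the KDAC6H611A libraries with more than 10% mitochondrial rRNA and at 0.930 CPM in the library without it. In KDAC6H216A the corresponding values were 18.8 to 22.4 CPM and 14.9 CPM. Among libraries with under 1% mitochondrial rRNA, CXCL8 thus ran from 0.355 CPM in KDAC8H143A to 35 CPM with Tubastatin A. For IL1B, KDAC6H216A replicate 1 (45.7 CPM) was nearer to the KDAC8H143A libraries than to the rest of its own line. The part of library type in the differences of KDAC8H143A and the inhibitors from WT was not tested.

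Across the 22 libraries the 7 measurable genes did not move as one group. Correlations of log2 CPM are descriptions over libraries that share groups and depth, with no test. The highest was between CXCL8 and IL1B (Pearson r = 0.858), followed by LIF and NFKBIA (0.676). TNFAIP3 went against IL1B (-0.853) and CXCL8 (-0.606), and its r with NFKBIA was -0.04. Among 12627 protein-coding genes with a mean of at least 1 CPM, the genes most like CXCL8 were SPATS2L (r = 0.972) and SPG20 (0.972), those most like IL1B were STK17A (0.982) and NRIP1 (0.981), and those most like TNFAIP3 were MYH15 (0.927) and GLYCTK (0.916). NRIP1 had means of 67.2 CPM in WT, 36.1 and 34.1 in the KDAC6H611A and KDAC8H143A lines, and 155 and 171 under Tubastatin A and PCI-34051, close to those of IL1B. MAP7D1 (0.954) and OBSL1 (0.953) were most like NFKBIA, and ZNF558 (0.937) and HIVEP1 (0.924) most like CXCL3. TMEM47 (0.945) and SNX10 (0.929) were most like IL6, and DYNC1LI2 (0.883) and PITPNM2 (0.882) most like LIF.

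Genomic neighbors were examined because a change over a chromosomal stretch would reach them too. None of the 20 genes nearest CXCL8 had enough counts to be tested, and MTHFD2L, the only tested neighbor of CXCL3, did not pass in any of the 6 comparisons. TNFAIP3 lies on the long arm of chromosome 6, and its tested neighbors IFNGR1, PERP and ARFGEF3 were all lower in KDAC8H143A, by -2.74 (adjusted p 4.76e-06, edgeR), -2.12 (adjusted p 1.05e-05) and -0.71 (adjusted p 5.43e-05), where TNFAIP3 itself was at 0.19. Of all genes, 26.9% were lower in KDAC8H143A. With Tubastatin A these neighbors were higher, at 0.72, 0.63 and 0.15, against 29.3% of all genes, where TNFAIP3 fell by 0.86. Next to IL1B, IL1A, the gene of the related interleukin 1 alpha, rose with Tubastatin A (log2 fold change 1.54, adjusted p 7.30e-08, edgeR) and with PCI-34051 (1.47, adjusted p 1.31e-06). IL1A missed the threshold in KDAC8H143A (-0.92, adjusted p 0.0207) and KDAC6H611A (-0.61, adjusted p 0.152). Around LIF, 3 of 7 tested neighbors rose and none fell in KDAC8H143A, against 31.6% and 26.9% of all genes. Those that rose were TBC1D10A (0.66), RNF215 (1.06) and RP1-102K2.8 (3.23). The median of the 7 was 0.66, where LIF was at 1.26. With PCI-34051 4 of 7 rose, among them RNF215 (0.93) and GATSL3 (2.14), and CCDC157 fell (-0.63), against 25.5% and 25.6% of all genes. RP1-102K2.8 was tested in KDAC8H143A and with PCI-34051 only, through the libraries in which it was high, so it adds nothing to the counts around LIF. Its changes are close to those of the antisense gene LIF-AS2, which overlaps LIF. It may be that gene under an older symbol rather than a separate neighbor. Around NFKBIA 1 of 5 tested neighbors rose and 1 fell in KDAC8H143A, against 31.6% and 26.9% of all genes. None was called in the other comparisons. Around IL6 1 of 7 rose and 2 fell with Tubastatin A, against 29.3% and 28.6% of all genes. In KDAC8H143A and with PCI-34051 none of the 7 rose and 3 fell, against 26.9% and 25.6% of all genes lower.

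**Figure D4:**
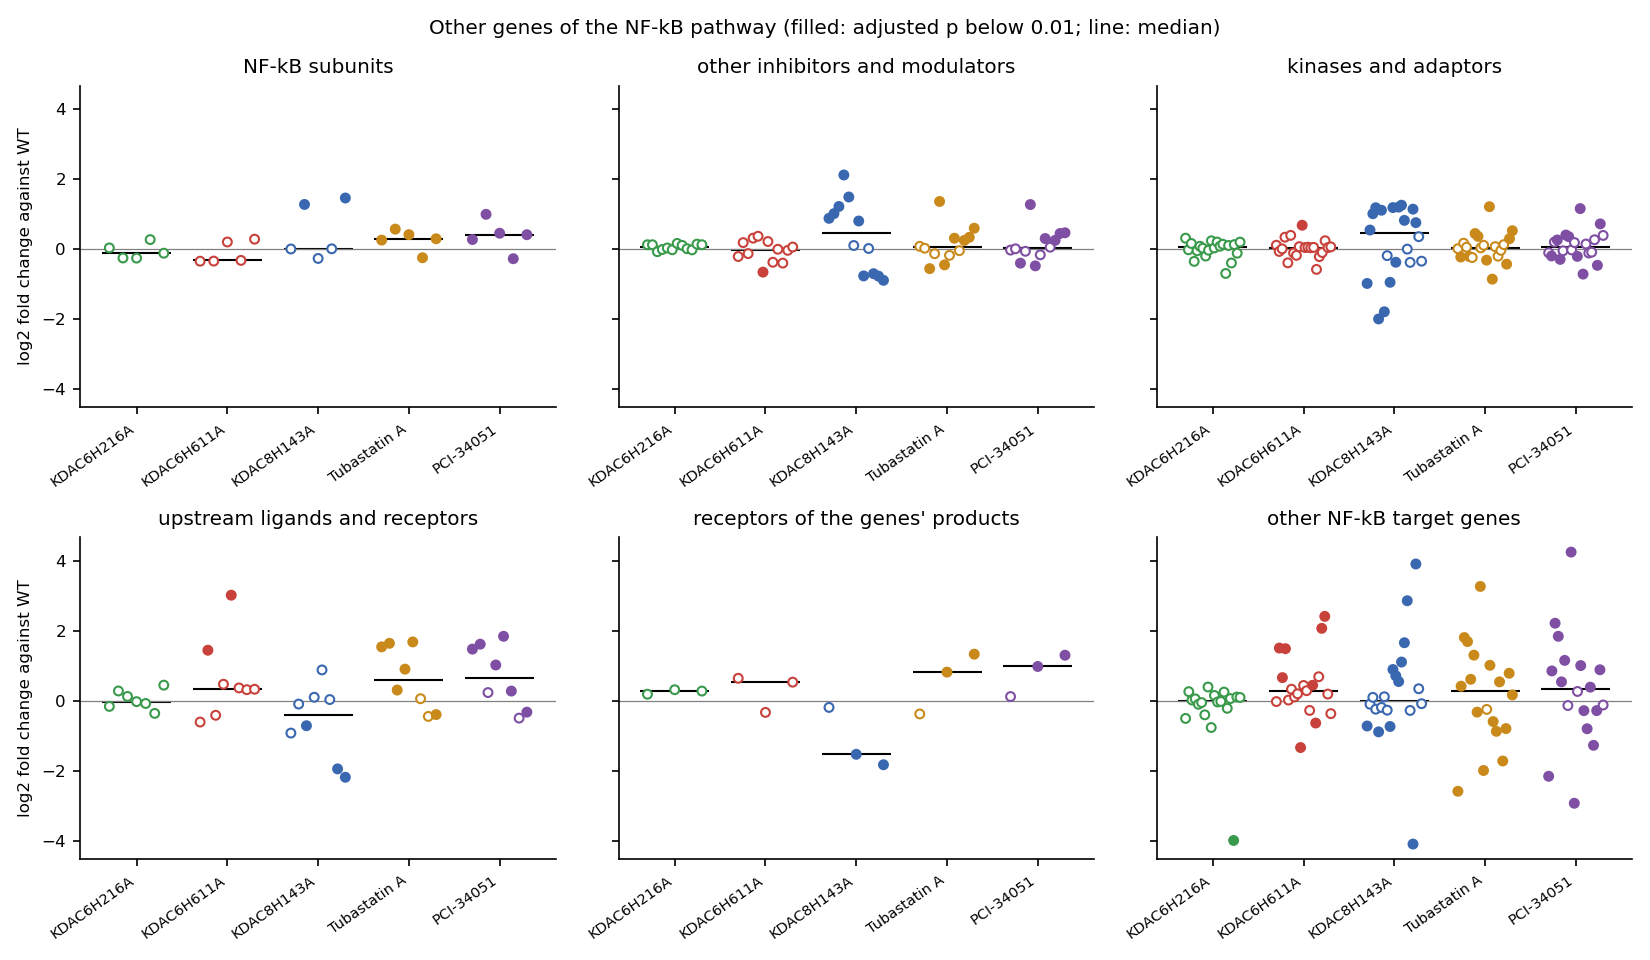
Log2 fold change against WT cells of the tested genes in 6 lists of the NF-kB pathway, by comparison, with filled circles for an adjusted p below 0.01 and a line at the median of the list. Open circles fill the KDAC6H216A column except for MMP1, while KDAC8H143A has genes on both sides among the kinases and adaptors.

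The rest of the pathway was counted from lists of known components. Besides genes that changed furthest in a direction, those named from a list were picked for their known role after their values were seen. Of the 5 NF-kB subunits, none passed in either KDAC6 line, against 0.834% of all genes in KDAC6H216A and 12.3% in KDAC6H611A. In KDAC8H143A 2 rose, against 31.6% of all genes, NFKB2 (1.46 ± 0.16, adjusted p 1.23e-05, edgeR) and RELB (1.28). Both are the subunits of the noncanonical pathway. With each inhibitor 4 subunits rose, RELB most (0.57 with Tubastatin A, 1.00 with PCI-34051), and NFKB1 fell (-0.24 and -0.27). Of all genes, 29.3% rose and 28.6% fell with Tubastatin A, and 25.5% and 25.6% with PCI-34051. RELA, the main activating subunit in most cells, was at 0.01 in KDAC8H143A and 0.26 and 0.28 with the inhibitors.

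Among 12 other inhibitors and modulators, 6 rose and 4 fell in KDAC8H143A, against 31.6% and 26.9% of all genes. NFKBID (2.12) and BCL3 (1.49), atypical IkB proteins of the nucleus, rose most. BCL3 also led with Tubastatin A (1.36) and PCI-34051 (1.28), where 5 of the 12 rose and 2 fell. The shares of all genes were 29.3% and 28.6% with Tubastatin A and 25.5% and 25.6% with PCI-34051. TNIP1, a partner of A20, fell with Tubastatin A (-0.45) and PCI-34051 (-0.47) as TNFAIP3 did, and in KDAC6H611A (-0.65), where TNFAIP3 did not pass.

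Of 21 kinases and adaptors 20 were tested. MYD88, the adaptor of the IL1 and Toll-like receptors, was left out with at most 11 counts in a library. IKBKE alone passed in KDAC6H611A (0.69), against 12.3% of all genes, and none passed in KDAC6H216A, against 0.834%. In KDAC8H143A 10 rose and 5 fell, against 31.6% and 26.9% of all genes, the furthest being TRAF2 (1.26), which links TNF receptors to the IkB kinase, and MAP3K7 (-1.99) and TAB2 (-1.78), the TAK1 kinase and its partner. TRAF2 went the other way with Tubastatin A (-0.85) and PCI-34051 (-0.71), where 5 of the 20 rose and 5 fell, against 29.3% and 28.6% of all genes under the former and 25.5% and 25.6% under the latter. TRAF1, an adaptor of TNF receptors, rose most with both (1.22 and 1.16).

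Of 14 upstream ligands and receptors, TNF, the classical inducer, had at most 4 counts in any library. TNFRSF1B, the second TNF receptor, was at 6.36 CPM in KDAC6H611A and 0.779 CPM in WT (3.01 ± 0.25, adjusted p 5.83e-06, edgeR). With at most 7 counts in WT libraries it passed the filter only through the group in which it was high. IL1R1, the signaling receptor of IL1B, rose in KDAC6H611A as well (1.44). With a mean of 1.13 CPM in WT, IL1R1 also passed the filter only through that line. TLR4, the receptor of bacterial lipopolysaccharide, fell in KDAC8H143A (-2.18) from 60.4 to 12.8 CPM. With both inhibitors 5 of the 8 tested rose, against 29.3% (Tubastatin A) and 25.5% (PCI-34051) of all genes, and TLR4 fell. Among those that rose was TNFRSF1B (1.68 and 1.84), which passed the filter only through the treated libraries, so it adds nothing to these counts. Receptors of the secreted products were tested in 3 of 8 cases. LIFR and IL6ST, which carry the signal of LIF, fell in KDAC8H143A (-1.83 and -1.53), where LIF rose, and rose with Tubastatin A (1.33 and 0.82) and PCI-34051 (1.3 and 0.98). Of all genes, 26.9% were lower in KDAC8H143A, 29.3% higher with Tubastatin A and 25.5% higher with PCI-34051. CXCR1 and CXCR2, the receptors of CXCL8, could not be tested.

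Other NF-kB target genes, 32 in all, went in both directions as well. In KDAC6H611A 6 of 19 tested rose, against 6.08% of all genes, and 2 fell, against 6.24%. Among them, the gelatinase gene MMP9 (2.41) and ICAM1 (1.49), an adhesion receptor for leukocytes, had at most 10 and 11 counts in WT libraries. Both passed the filter only through KDAC6H611A, where they were high, so they add nothing to the count of genes that rose. The others included IL11 (1.5), a further cytokine of the IL6 family, CSF1 (0.66), the macrophage growth factor, and the collagenase gene MMP1 (2.07), while BCL2A1, an inhibitor of apoptosis, fell (-1.34). MMP1 was the only gene of all these lists called in KDAC6H216A, where it fell from 58.4 to 3.88 CPM (-3.99). With Tubastatin A 10 of 18 rose and 7 fell, against 29.3% and 28.6% of all genes, and with PCI-34051 9 rose and 6 fell, against 25.5% and 25.6%. PTGS2, which makes the prostaglandin-forming enzyme COX-2, rose most (3.26 with Tubastatin A and 4.24 with PCI-34051), together with CSF1 (1.80 and 2.21), ICAM1 (1.69 and 1.84) and BIRC3 (1.3 and 1.15). CCL5 (-2.58 and -2.16) and BCL2A1 (-1.99 and -2.93) fell with both. In KDAC8H143A 7 of 20 rose and 4 fell, against 31.6% and 26.9% of all genes. MMP9 was furthest up (3.90) and MMP1 furthest down (-4.09). MMP9 and SAA1 (2.86) had at most 10 and 3 counts in WT libraries and passed the filter only through KDAC8H143A, where they were high. Both thus add nothing to the count of genes that rose. The median of the list with them was 0.01, against 0.08 for all genes.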

How the data were processed

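Total RNA of HT1080 cells was depleted of rRNA and sequenced as paired reads by a commercial provider. The table deposited by the authors holds expected counts per gene, made per the submitters' processing notes with Trimmomatic 0.39, Bowtie2 2.4.5 and RSEM 1.3.3 on GRCh38, with default settings for the counting, which in RSEM do not use strand. The annotation release is not given in the sources used here. RSEM shares reads among genes that match alike, so 10.6% to 13.5% of the values of a library were not whole, and these were rounded.

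Groups were taken from the labels of 22 libraries with 5248953 to 29862665 counts. Each pair of groups was fitted alone with edgeR 4.0.16 (R 4.3.3): filterByExpr, TMM factors, glmQLFit and glmQLFTest, with Benjamini-Hochberg adjustment over all genes tested and a threshold of 0.01. Adjusted p-values in the text are from this test unless a setting is named. The procedure was tested on simulated counts. Levels are CPM with TMM factors over the 22 libraries. A count of 0 allows up to 3 counts, which covers counting error only. GENCODE 44 matched 56558 of 60675 genes and gave exon lengths and neighbors, 10 on each side. Promoters were aligned with Biopython 1.88.

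Alternatives were DESeq2 1.42.0, total-count scaling, no filter, all 6 groups in one fit, a correction for GC content and length (mgcv 1.9.3), the replicate number as a block, a threshold of 0.05, and each library left out. The genes, the pathway lists and the tests were chosen with earlier results of these data known. Named besides the members were genes among the furthest changed of each list, the closest 2 genes by correlation, tested neighbors, and a few genes of known role singled out after their values were seen.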

Additional observations from a re-analysis of the deposited data

Results flagged for a closer look

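Of 28 sets of 4 libraries of a gene, 2 held a library far from the others by Dixon's test, which chance does in about 1 of 20 sets. IL6 in WT replicate 1 was the lowest of its group at 0.206 CPM, from 1 count. IL1B in KDAC6H611A replicate 2 was the lowest of its group at 36.9 CPM, where the other 3 libraries were at 39.8 to 40.03 CPM.

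The KDAC6 lines differed in a direct test of KDAC6H611A against KDAC6H216A for 2 genes, where domain and clone cannot be told apart. The log2 difference was -4.97 for CXCL8, lower in KDAC6H611A with no overlap of the libraries. For IL1B it was -0.842, also without overlap.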

How the results depend on the processing

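With TMM replaced by the total count alone, the median of all genes moved to 0.17 in KDAC6H216A, 0.36 in KDAC8H143A, 0.35 under Tubastatin A and 0.38 under PCI-34051, and higher genes made up 81.1%, 72.1%, 81.1% and 84.2% of the calls, against 25.6%, 54.1%, 50.6% and 49.9%. The count of NF-kB genes called in KDAC6H216A was 1 in place of 0 at an adjusted p below 0.05, with DESeq2, without the filter and with all 6 groups in one fit, and 0 to 2 with a library left out. With all 6 groups in one fit it was 3 in place of 5 for PCI-34051 and 4 in place of 2 for KDAC6H611A against KDAC6H216A, where leaving out a library gave 1 to 2. Replicate numbers paired the samples unevenly (correlations of deviations from -0.351 to 0.552). Closest to the library of the same number were 4 of 8 libraries in KDAC6H216A and in KDAC8H143A against WT, but 1 of 7 with PCI-34051. With a replicate block, alone or with the correction for GC content and length, the count for KDAC6H611A against KDAC6H216A was 1. The IL1B call between the KDAC6 lines was lost under both (adjusted p up to 0.0116). Counts over all genes moved further: 121 in KDAC6H216A became 293 with DESeq2, 440 with total counts, 215 with all 6 groups, 66 with the replicate block, 60 with block and correction, 3813 without replicate 1 of the line and 28 to 49 without another library. The 1814 in KDAC6H611A became 912 with total counts, 1122 and 1125 without WT replicate 3 or 2, and 2908 without replicate 2 of the line. With all 6 groups 8821 became 4607 for Tubastatin A and 7835 became 4341 for PCI-34051. Between the KDAC6 lines 1485 became 2339 with DESeq2, 781 with total counts, 3382 with all 6 groups, 930 and 861 with the block, 3041 without KDAC6H216A replicate 1 and 772 at the lowest without another library. Of values close to 0, IL1B in KDAC6H216A changed sign with total counts (0.12), without the filter (0.00337), with all 6 groups (0.0656), with the correction (0.0259), with the replicate block and correction (0.00183) and over the libraries left out (-0.11 to 0.10). TNFAIP3 in that line was at 0.0851 with total counts. LIF between the KDAC6 lines was at -0.0504 with DESeq2, -0.16 with total counts, -0.0773 without the filter, -0.0797 with all 6 groups, -0.18 with the correction with or without the block, and -0.12 to 0.12 over the libraries left out. The cause was not tested. Counts under 10 in a library limit IL6, CCL2, CXCL8 in the low lines and CXCL3 in KDAC6H611A.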
